A study of Mus musculus with 3 samples.

Results

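The Rhox genes, the reproductive homeobox genes of the mouse X chromosome, were followed along their cluster in embryonic stem cells that differed at Pcgf6. The members were 10 named genes: Rhox1, Rhox2c, Rhox4b, Rhox5, Rhox6, Rhox8, Rhox9, Rhox10, Rhox11 and Rhox13. Each was identified by the RefSeq accession printed with its probe. No probe carried the accession of Rhox4b, so 9 of the 10 members were read, through 10 of the 55681 probes, out of 20274 named genes. The other Rhox genes with a probe, 12 genes with 16 probes, were read in the same way and are described beside the members.

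RNA came from male mouse embryonic stem cells kept with fibroblast feeders that mitomycin-C had made unable to divide, in medium with serum and leukemia inhibitory factor. There were 3 groups with 1 array each. The first, labelled Pcgf6KO+ Pcgf6_flag, was a knockout line that had been given Flag-tagged Pcgf6 by lentivirus. The second, Pcgf6KO, carried a Cas9-made knockout of Pcgf6, and the third was wildtype. Whether a line was a single clone, which promoter drove the Flag-tagged copy and how many cultures were pooled are not given in the sources used here. With 1 array in each group there was no replicate spread, so no test was made. Differences of at least 2-fold were counted and set beside the share of all genes that did the same.

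Rhox genes encode homeodomain transcription factors and lie in 3 subgroups named alpha, beta and gamma. They are known mainly from testis, ovary, germ cells and placenta, and the promoters of several of them are known targets of DNA methylation during embryonic development. Pcgf6 is the subunit that defines PRC1.6, a variant Polycomb complex that also contains the E-box binding pair Mga and Max and the E2F family member E2f6. PRC1.6 is known for keeping germline genes silent in embryonic stem cells.

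The promoter windows of some members are given as a description of genes that moved together and of genes that did not. RefSeq windows on GRCm38.p6, from 250 bases before to 50 bases after each gene's start, matched 7 of the 10 members and 27 Rhox genes in all. Shown are Rhox13, Rhox10 and Rhox2c, which had the largest differences between Pcgf6KO and wildtype among the members, then Rhox1, which was near the limit of detection in wildtype, and Rhox5, which moved less than 2-fold. Capitals mark each CG dinucleotide, the site at which DNA is methylated.
Rhox13, chrX:38120590-38120889, plus strand: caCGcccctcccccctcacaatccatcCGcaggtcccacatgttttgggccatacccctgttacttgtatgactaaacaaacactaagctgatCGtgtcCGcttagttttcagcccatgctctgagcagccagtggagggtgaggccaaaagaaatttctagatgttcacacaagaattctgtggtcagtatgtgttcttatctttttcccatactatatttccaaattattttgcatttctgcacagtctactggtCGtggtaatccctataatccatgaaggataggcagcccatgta
Rhox10, chrX:38066225-38066524, plus strand: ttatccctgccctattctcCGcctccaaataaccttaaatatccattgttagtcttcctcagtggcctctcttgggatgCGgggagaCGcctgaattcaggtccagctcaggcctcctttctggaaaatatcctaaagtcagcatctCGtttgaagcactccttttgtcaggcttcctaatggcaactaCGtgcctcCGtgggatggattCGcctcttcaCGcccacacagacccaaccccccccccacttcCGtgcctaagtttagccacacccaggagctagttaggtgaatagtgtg
Rhox2c, chrX:37453409-37453708, plus strand: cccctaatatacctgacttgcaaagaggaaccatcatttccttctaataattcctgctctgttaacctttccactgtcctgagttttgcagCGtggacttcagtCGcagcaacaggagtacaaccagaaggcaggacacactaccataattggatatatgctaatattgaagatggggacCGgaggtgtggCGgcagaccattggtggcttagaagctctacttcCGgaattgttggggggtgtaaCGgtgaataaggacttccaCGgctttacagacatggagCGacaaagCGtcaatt
Rhox1, chrX:37222209-37222508, minus strand: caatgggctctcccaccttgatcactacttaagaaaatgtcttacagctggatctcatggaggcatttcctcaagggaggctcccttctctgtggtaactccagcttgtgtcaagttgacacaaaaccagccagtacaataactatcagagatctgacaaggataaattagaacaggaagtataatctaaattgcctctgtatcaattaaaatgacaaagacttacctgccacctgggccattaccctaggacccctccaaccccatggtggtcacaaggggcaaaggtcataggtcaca
Rhox5, chrX:37754358-37754657, plus strand: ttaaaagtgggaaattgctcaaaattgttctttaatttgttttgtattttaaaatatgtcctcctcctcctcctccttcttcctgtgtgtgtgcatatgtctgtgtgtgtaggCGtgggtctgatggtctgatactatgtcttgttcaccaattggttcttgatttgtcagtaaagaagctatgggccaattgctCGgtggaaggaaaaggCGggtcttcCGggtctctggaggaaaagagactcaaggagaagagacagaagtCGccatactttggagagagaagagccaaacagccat

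The number of CG dinucleotides in these windows differed. Rhox13 and Rhox5 each held 5, Rhox10 and Rhox2c each held 9, and Rhox1 held 0. Over the 27 Rhox promoters the count ranged from 0 to 12 with a median of 7. The median over all 32851 RefSeq promoters was also 7, with quartiles of 3 and 20. Among the windows shown, Rhox13 and Rhox5 had the same CG count and very different values. These windows were mostly picked by the differences of their genes, so they cannot show whether CG count and difference are linked. That link was not tested.

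The windows were searched on both strands for an E-box (CACGTG), an E2F motif (GGCGGGA) and a T-box motif (AGGTGTGA). The E-box was present in 5 of the 27 Rhox promoters, and all 5 were Rhox4 copies, whereas 7.15% of all promoters held it. The E2F motif was in 0 of 27 Rhox promoters and 11.3% of all promoters, and the T-box motif in 0 of 27 and 1.28%. A match is only a match of letters, and its absence says only that the letters are not in this window. The Rhox4 match lay in a stretch of 24 bases that the copies share, printed here because Rhox4e and Rhox4g have probes and Rhox4b is a member. Capitals mark the hexamer.
Rhox4e, chrX:37557206-37557229, plus strand: ggtgggtcgcCACGTGtgcatcca
Rhox4g, chrX:37651507-37651530, minus strand: ggtgggtcgcCACGTGtgcatcca
Rhox4b, chrX:37432260-37432283, plus strand: ggtgggtcgcCACGTGtgcatcca
Rhox4c, chrX:37480113-37480136, plus strand: ggtgggtcgcCATGTGtgcatcca

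Rhox4c, which has no probe here, differed from Rhox4e by C13T, counted from 1 at the 5′ end of the stretch, and so lost the E-box letters. The window of Rhox4a began inside the stretch and could not be read for it. The copies are close: the promoters of Rhox2c and Rhox2e were 99.3% identical over 300 aligned bases, those of Rhox2c and Rhox2h 94% over 300, and those of Rhox4a and Rhox4e 99.6% over 242. A probe of one copy may therefore also bind the transcript of another. How far the Rhox2, Rhox3 and Rhox4 probes share transcripts was not tested, so their values are those of the probe and not securely of 1 copy.

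The targeted gene was read first. Its processed signal, the background-subtracted brightness of the spot in arbitrary units, was 6202 on the array labelled Pcgf6KO+ Pcgf6_flag, 7704 on the Pcgf6KO array and 14333 on the wildtype array. Levels below are log2 of the processed signal, less the log2 of the 75th percentile of the array. On that scale Pcgf6 was 0.42 on the array labelled Pcgf6KO+ Pcgf6_flag, 0.84 in Pcgf6KO and 1.87 in wildtype. The difference from wildtype was therefore -1.45 for the array labelled Pcgf6KO+ Pcgf6_flag and -1.03 for Pcgf6KO. On unscaled signals the difference between Pcgf6KO and wildtype was under 2-fold. The spot carried the scanner's mark for an outlying local background on the Pcgf6KO and wildtype arrays. Pcgf6 was lowest on the array whose label names the added copy, so this probe gives no sign of that copy. Whether this probe reads the edited part of the gene or the lentiviral copy was not tested.

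That array also stood apart technically. It lay alone on the second slide and in the second scan, while Pcgf6KO and wildtype shared the first, so slide and group cannot be told apart. It had 60.7% of probes well above background, against 66.0% for Pcgf6KO and 65.3% for wildtype. Its lowest signal well above background was 103, against 53.4 in Pcgf6KO and 52.7 in wildtype. Repeated spots of a probe had a spread of 0.09 log2 units on each array, which covers only the error within an array. The labelled cell type was checked against its markers, and 8 of 8 pluripotency markers were measured on every array. Some probes are given below with the error that the scanner software assigns to the spot, written as ±. This error belongs to the unscaled signal, and overlap within it is judged on unscaled signals.

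Most Rhox genes that could be measured were brighter in Pcgf6KO cells than in wildtype cells. Of the 8 members measured on both, 6 were higher in Pcgf6KO by 2-fold or more and 0 were lower. Across the named genes with a signal on both, 870 of 14997, or 5.8%, were higher by 2-fold or more and 422, or 2.81%, were lower. The median difference of the 8 members was 1.68 in log2 units, and that of all named genes was -0.02. The 6 were Rhox13, Rhox10, Rhox2c, Rhox6, Rhox1 and Rhox9, and the other two measured members were Rhox5 and Rhox8.

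The array labelled Pcgf6KO+ Pcgf6_flag was lower than Pcgf6KO for all of these 6 except Rhox1, which stayed within 2-fold. Among the 8 members, 5 were lower there by 2-fold or more and 0 were higher, against 1192 of 14241 named genes (8.37%) that were lower and 769 (5.4%) that were higher. The median difference was -1.64 for the members and 0.03 for all named genes. Set against wildtype, 2 of 8 members, Rhox1 and Rhox13, were higher by 2-fold or more on the array labelled Pcgf6KO+ Pcgf6_flag, and 0 were lower. The background was 696 of 14193 genes (4.9%) higher and 682 (4.81%) lower. The median was 0.13 for the members and -0.02 for all named genes. These comparisons share arrays: a value on the Pcgf6KO array enters both the first and the second.

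**Figure D1:**
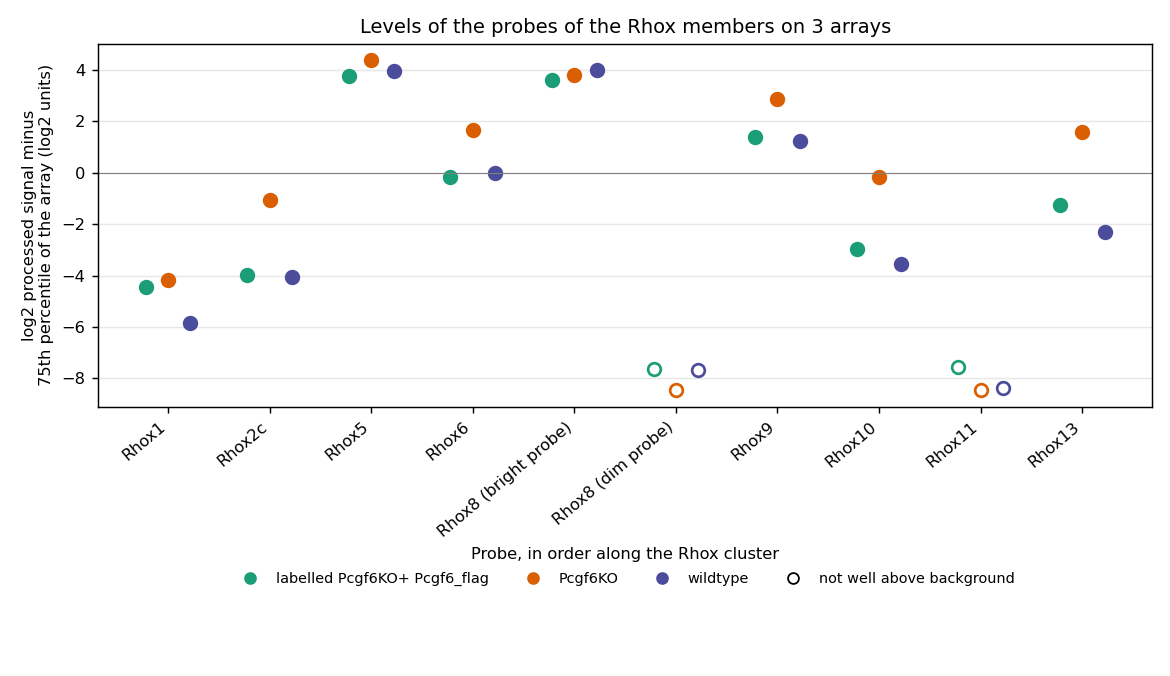
Level of each probe of the Rhox members on the vertical axis, as log2 processed signal less the 75th percentile of the array, with probes in order along the cluster on the horizontal axis and 1 point per array; open points are not well above background. The Pcgf6KO point is above both others for Rhox1, Rhox2c, Rhox5, Rhox6, Rhox9, Rhox10 and Rhox13, while Rhox11 and the dim probe of Rhox8 lie at background on all 3 arrays.

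In the alpha subgroup, Rhox1, known from the testis, was near the limit of detection in wildtype. Its signal was 209 ± 31.3 on the array labelled Pcgf6KO+ Pcgf6_flag, 237 ± 26.7 in Pcgf6KO and 67.5 ± 13.8 in wildtype. The arrays of the mutant lines overlapped within the error of the spot, and wildtype lay below both. The log2 difference was 1.68 for Pcgf6KO minus wildtype, -0.29 for the array labelled Pcgf6KO+ Pcgf6_flag minus Pcgf6KO, and 1.40 for that array minus wildtype. With normexp background correction, which adds an offset that compresses dim signals, the differences from wildtype became 0.81 for Pcgf6KO and 0.74 for the array labelled Pcgf6KO+ Pcgf6_flag, both under 2-fold.

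Rhox2c belongs to a set of tandem Rhox2 copies expressed in the testis. Its signal was 296 ± 37.0 on the array labelled Pcgf6KO+ Pcgf6_flag, 2031 ± 203 in Pcgf6KO and 234 ± 25.9 in wildtype. Only the Pcgf6KO array was high. Pcgf6KO was 7.92-fold above wildtype, a log2 difference of 2.98, and the array labelled Pcgf6KO+ Pcgf6_flag differed from Pcgf6KO by -2.89 log2 units. Its difference from wildtype was 0.10, and the unscaled signals of that array and wildtype overlapped within the error of the spot.

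The other Rhox2 copies were read through 3 probes. Rhox2e had a signal of 319 on the array labelled Pcgf6KO+ Pcgf6_flag, 1704 in Pcgf6KO and 366 in wildtype, with log2 differences of 2.09 for Pcgf6KO minus wildtype and -2.52 for the array labelled Pcgf6KO+ Pcgf6_flag minus Pcgf6KO. Rhox2h had 2 probes, and its brighter one gave 2049, 2816 and 612 on the arrays in the same order. There the array labelled Pcgf6KO+ Pcgf6_flag stayed near Pcgf6KO, at a difference of -0.57, and was 1.51 above wildtype. The median signal of this spot, before background subtraction, was 1514 on that array, 2739 in Pcgf6KO and 680.5 in wildtype. On the array labelled Pcgf6KO+ Pcgf6_flag it lay well below the processed signal, so the differences of that array are uncertain for this probe. The dimmer Rhox2h probe was well above background in Pcgf6KO alone, with a signal of 251. Pcgf6KO was at least 4.34-fold higher than wildtype by this probe, and the array labelled Pcgf6KO+ Pcgf6_flag was at least 2.62-fold lower than Pcgf6KO. Of the 1516 genes measured on 1 of the arrays in that last comparison, 25.5% had a bound of 2-fold or more lower and 13.2% a bound of 2-fold or more higher. Such a bound sets the measured signal against the lowest signal well above background on the dim array, or against the probe's own signal where that is higher. The probes of Rhox2h thus agreed for Pcgf6KO against wildtype and disagreed on whether the array labelled Pcgf6KO+ Pcgf6_flag was 2-fold below Pcgf6KO.

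The Rhox4 genes, which include Ehox (Rhox4b), a homeobox gene first described in embryonic stem cells, moved alike. Rhox4a had a signal of 1636 on the array labelled Pcgf6KO+ Pcgf6_flag, 6628 in Pcgf6KO and 1212 in wildtype. Rhox4g had 1875 on the array labelled Pcgf6KO+ Pcgf6_flag, 6995 in Pcgf6KO and 1345 in wildtype. Rhox4e had 279 on the array labelled Pcgf6KO+ Pcgf6_flag, 856 in Pcgf6KO and 153 in wildtype. All 3 probes were highest in Pcgf6KO, with log2 differences from wildtype of 2.32 for Rhox4a, 2.25 for Rhox4g and 2.35 for Rhox4e. Set against Pcgf6KO, the array labelled Pcgf6KO+ Pcgf6_flag differed by -2.12 for Rhox4a, -2.01 for Rhox4g and -1.72 for Rhox4e.

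The Rhox3 probes lay at or near background. Rhox3a, Rhox3f, Rhox3g and Rhox3h were well above background on no array. Rhox3e was well above background in wildtype alone, with a signal of 68.2 ± 14.0. Its Pcgf6KO signal was 59.8 ± 13.8, 1.25-fold lower after scaling, and these signals overlapped within the error of the spot. For these genes the arrays could not show whether the levels differed.

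**Figure D2:**
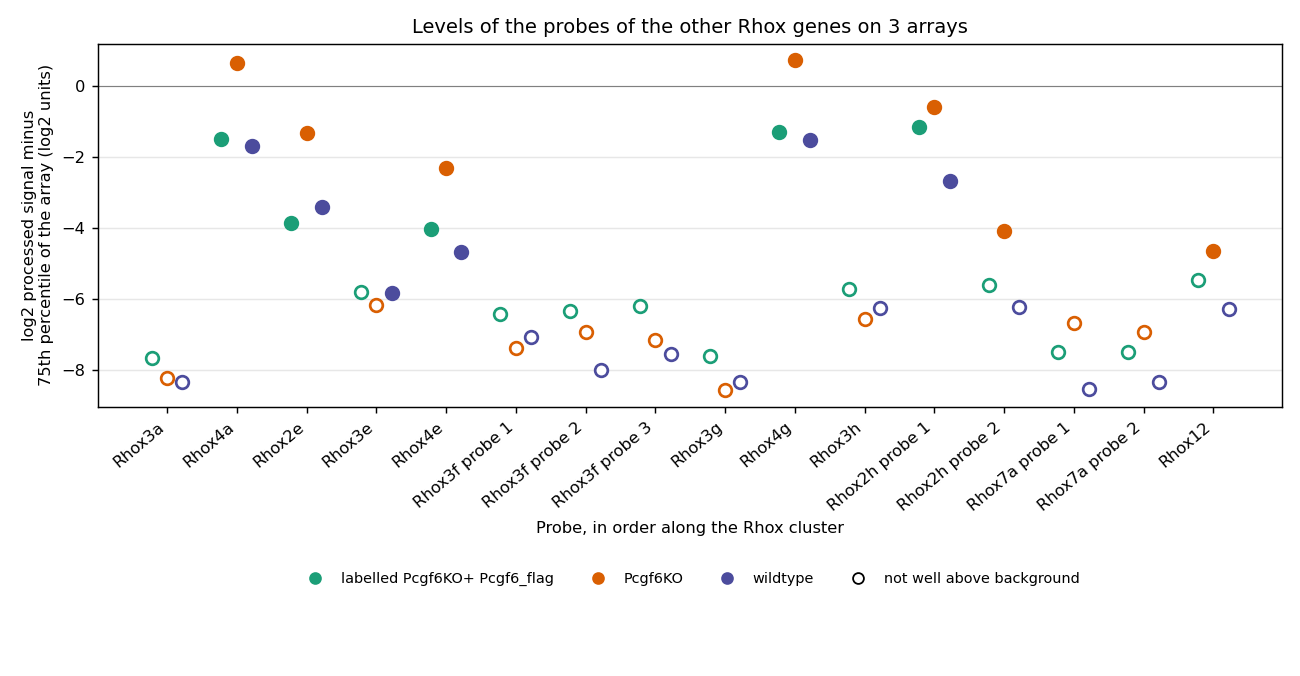
Level of each probe of the other Rhox genes on the vertical axis, as log2 processed signal less the 75th percentile of the array, with probes in order along the cluster and 1 point per array; open points are not well above background. The Rhox4 and Rhox2 probes stand highest in Pcgf6KO, and the Rhox3 and Rhox7a probes lie at background or close to it.

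Among the beta genes, Rhox5 and Rhox8 were already bright in wildtype and moved little. Rhox5, also called Pem, is the founding gene of the cluster, is expressed in Sertoli cells, embryonic stem cells and extraembryonic tissue. Its signal was 62353 ± 6235 on the array labelled Pcgf6KO+ Pcgf6_flag, 88744 ± 8874 in Pcgf6KO and 60695 ± 6070 in wildtype. Its values on the array labelled Pcgf6KO+ Pcgf6_flag and in wildtype overlapped within the error of the spot, and Pcgf6KO lay above them by less than 2-fold. The log2 difference was 0.42 for Pcgf6KO minus wildtype, a fold of 1.33, and -0.62 for the array labelled Pcgf6KO+ Pcgf6_flag minus Pcgf6KO. No spot was saturated, so these bright signals were within the scanner's range.

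Rhox8, known from Sertoli and granulosa cells, had 2 probes that disagreed on detection. The bright probe gave 57007 ± 5701 on the array labelled Pcgf6KO+ Pcgf6_flag, 60347 ± 6035 in Pcgf6KO and 62737 ± 6274 in wildtype. These unscaled signals overlapped within the error of the spot. After scaling, the log2 difference was -0.19 for Pcgf6KO minus wildtype and -0.38 for the array labelled Pcgf6KO+ Pcgf6_flag minus wildtype. The overlap does not carry over to these scaled differences. The second probe, with the same accession, was well above background on no array. Which of them reads the Rhox8 transcript was not tested.

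Rhox6 and Rhox9, also called Psx1 and Psx2, are known from placenta and germ cells. Rhox6 had a signal of 4173 ± 418 on the array labelled Pcgf6KO+ Pcgf6_flag, 13551 ± 1355 in Pcgf6KO and 3851 ± 385 in wildtype. Rhox9 had 12023 ± 1203 on the array labelled Pcgf6KO+ Pcgf6_flag, 31223 ± 3122 in Pcgf6KO and 9119 ± 912 in wildtype. Both were highest in Pcgf6KO and close to wildtype on the array labelled Pcgf6KO+ Pcgf6_flag. Pcgf6KO was 3.21-fold above wildtype for Rhox6 and 3.13-fold for Rhox9, log2 differences of 1.68 and 1.64. Rhox6 differed by -1.81 log2 units between the array labelled Pcgf6KO+ Pcgf6_flag and Pcgf6KO, and Rhox9 by -1.48. Between that array and wildtype Rhox6 differed by -0.12 and Rhox9 by 0.16. Both probes of Rhox7a were well above background on no array.

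The gamma genes Rhox13 and Rhox10 held the largest differences of the cluster between Pcgf6KO and wildtype. Rhox10 is known for its part in the formation of spermatogonial stem cells. Its signal was 596 ± 64.1 on the array labelled Pcgf6KO+ Pcgf6_flag, 3805 ± 381 in Pcgf6KO and 332 ± 34.9 in wildtype. The 3 arrays stood apart by more than the error of the spot, with Pcgf6KO far above the others. Pcgf6KO was 10.5-fold above wildtype, a log2 difference of 3.39. On the array labelled Pcgf6KO+ Pcgf6_flag it was 6.87-fold below Pcgf6KO and 1.52-fold above wildtype.

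Rhox13, expressed in male germ cells, had a signal of 1946 ± 196 on the array labelled Pcgf6KO+ Pcgf6_flag, 12981 ± 1298 in Pcgf6KO and 795 ± 80.4 in wildtype. The order was the same as for Rhox10. Pcgf6KO was 14.9-fold above wildtype, a log2 difference of 3.90, and the array labelled Pcgf6KO+ Pcgf6_flag differed from Pcgf6KO by -2.84. That array remained 2.08-fold above wildtype, a log2 difference of 1.05 that fell under 2-fold, to 0.93, when arrays were scaled to their median and to 0.90 with normexp background correction. Its Rhox13 spot, like those of Rhox5 and Rhox8, carried the scanner's mark for an outlying local background.

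Rhox11 was well above background on no array, with signals of 24.2 on the array labelled Pcgf6KO+ Pcgf6_flag, 12.1 in Pcgf6KO and 11.9 in wildtype. Rhox12 was well above background in Pcgf6KO alone, with a signal of 171, and Pcgf6KO was at least 2.96-fold higher than wildtype. Its dim spot carried the scanner's mark for an outlying local background on all 3 arrays, which limits these values. Among all genes measured on 1 of these 2 arrays, 179 of 882 (20.3%) had a bound of at least 2-fold higher in Pcgf6KO and 143 (16.2%) a bound as large in the other direction. On the array labelled Pcgf6KO+ Pcgf6_flag, Rhox12 had a signal of 104, just over the lowest signal well above background there. By that signal it was 1.77-fold lower than in Pcgf6KO, which does not reach 2-fold.

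By subgroup, with members and other Rhox genes together, 7 of 7 measured alpha genes were higher by 2-fold or more in Pcgf6KO than in wildtype, with a median log2 difference of 2.25. In the beta subgroup 2 of 4 were, with a median of 1.03, and in the gamma subgroup 2 of 2, with a median of 3.64. The share over all named genes was 5.8%. Apart from Rhox1, the measured alpha genes were Rhox2 and Rhox4 copies, whose probes may share transcripts, so their count is not one of separate genes. For the array labelled Pcgf6KO+ Pcgf6_flag against Pcgf6KO, 5 of 7 alpha, 2 of 4 beta and 2 of 2 gamma genes were lower by 2-fold or more. Over all named genes the share was 8.37%. The alpha genes that were not were Rhox1 and Rhox2h. The differences between subgroups were not tested.

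The differences between Pcgf6KO and wildtype were set against the neighbouring genes on the X chromosome. The 5 nearest genes with a probe on the Rhox1 side were Upf3b, Nkap, Akap14, Ndufa1 and Rnf113a1, and those on the Rhox13 side were Zbtb33, Tmem255a, Atp1b4, Lamp2 and Cul4b. Of the 10, 7 were measured on both arrays, and 0 of these were 2-fold higher or lower in Pcgf6KO. Their log2 differences for Pcgf6KO minus wildtype lay between -0.22 for Upf3b, a factor of nonsense-mediated decay, and 0.23 for Nkap, with a median of 0.06. For the array labelled Pcgf6KO+ Pcgf6_flag minus Pcgf6KO they lay between -0.50 for Zbtb33, the methyl-DNA binding protein Kaiso, and 0.31 for Upf3b. Akap14 was measured in wildtype alone, and Pcgf6KO was at least 2.40-fold lower. Tmem255a was measured in Pcgf6KO alone, at least 1.78-fold higher than in wildtype, and Atp1b4 was well above background on no array.

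**Figure D3:**
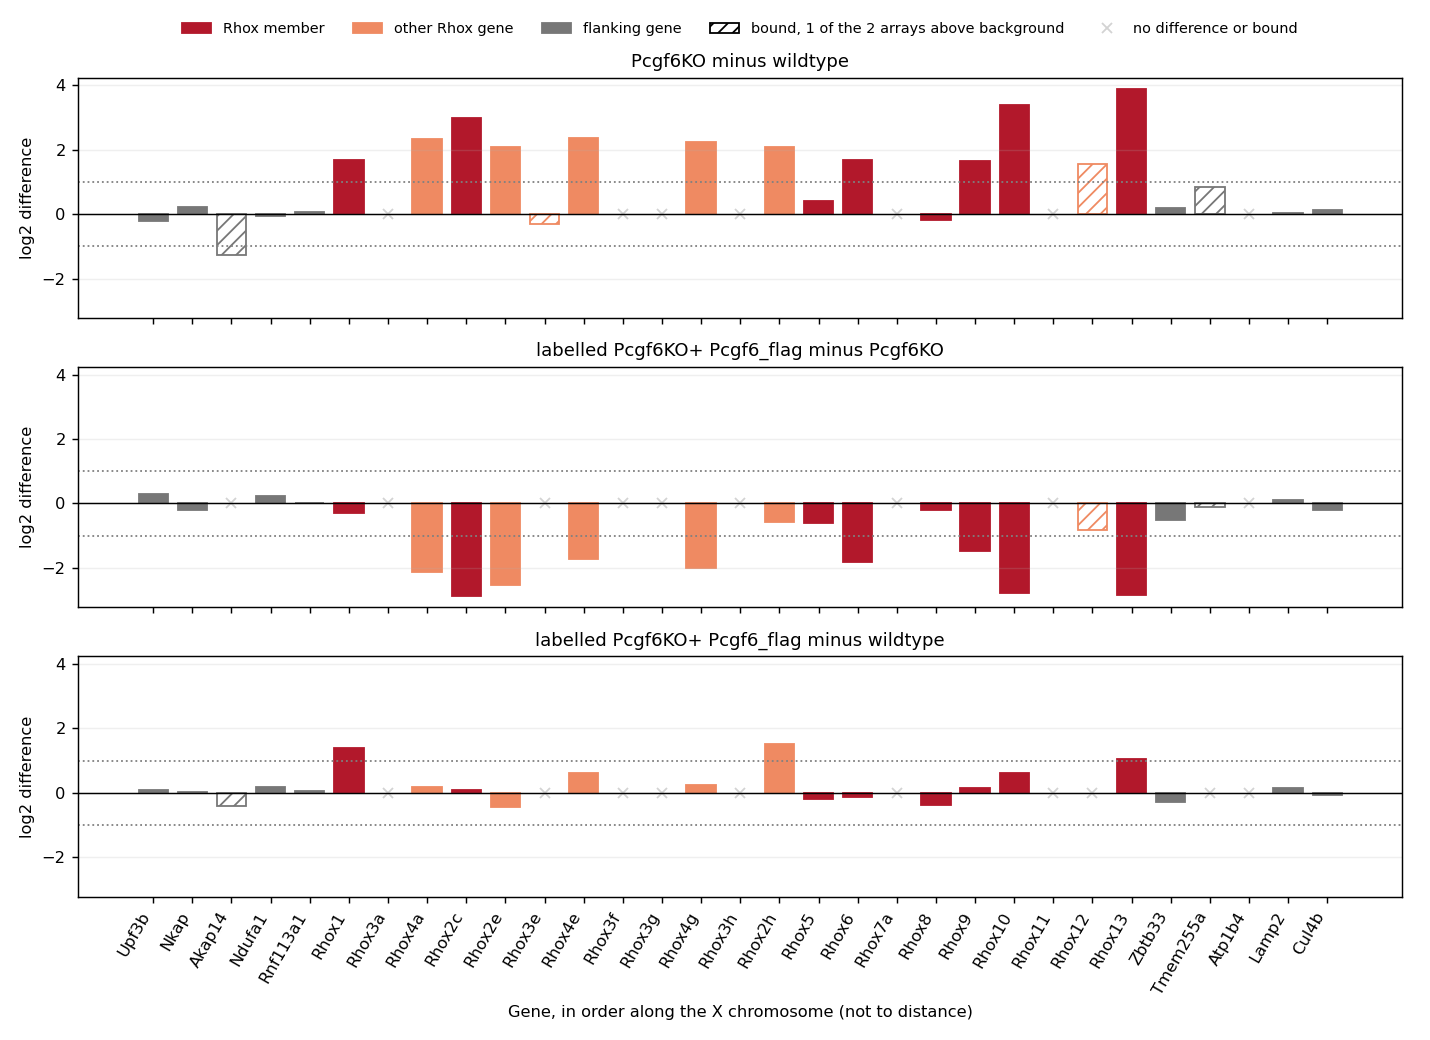
Log2 difference on the vertical axis for each gene in order along the X chromosome, not to distance, in 3 panels for the 3 comparisons; hatched bars are bounds, crosses have no difference or bound, and dotted lines mark 2-fold. Most Rhox genes with a measured difference rise above the upper line for Pcgf6KO minus wildtype and fall below the lower line for the array labelled Pcgf6KO+ Pcgf6_flag minus Pcgf6KO, while the 7 flanking genes measured on both arrays stay between the lines.

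Other germline genes were read from lists, to see whether the Rhox genes stood alone. Of 15 X-linked germline genes outside the cluster that were measured on both, 12 were higher by 2-fold or more in Pcgf6KO than in wildtype and 0 were lower, with a median log2 difference of 3.35. The largest were Xlr4b with 6.37, Luzp4 with 6.35 and Xlr4a with 5.55. The array labelled Pcgf6KO+ Pcgf6_flag could be set against Pcgf6KO for 15 genes, of which 13 were also among those just described. Of its 15, 11 were lower than in Pcgf6KO by 2-fold or more and 1, Usp26, was higher, with a median of -2.53. Against wildtype, that array had 9 of 13 at least 2-fold higher, with a median of 1.76. The Rhox members had a median of 0.13 in that comparison.

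A further list held 16 germline genes, of which 15 lie on autosomes and 1, Taf9b, lies on the X chromosome. Of the 15, 9 were at least 2-fold higher in Pcgf6KO than in wildtype and 0 were lower, with a median of 1.84, while Taf9b differed by 0.54. Tdrkh, which takes part in piRNA biogenesis, had 3.87, the meiosis gene Mei1 3.12 and the testis bromodomain gene Brdt 2.93. On the array labelled Pcgf6KO+ Pcgf6_flag, 9 of the 14 autosomal genes measured were at least 2-fold lower than in Pcgf6KO and 1, the meiotic cohesin gene Stag3, was higher by 1.37, with a median of -2.03. Set against wildtype, 0 of 14 were past 2-fold, with a median of 0.05. These lists were chosen with results of these arrays known and give no independent support.

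Genes of the repressive machinery mostly stayed within 2-fold. Among 15 PRC1.6 subunits, 0 were higher in Pcgf6KO by 2-fold or more and 1, Pcgf6 itself, was lower, with a median of -0.01. Pcgf6, at -1.03, was only just past 2-fold, and was under it on unscaled signals. The next largest were the histone deacetylase Hdac2 with 0.75 and Yaf2 with 0.69. On the array labelled Pcgf6KO+ Pcgf6_flag, Yaf2 differed from Pcgf6KO by -1.16 and was the only subunit of the 15 past 2-fold in that comparison. Of 14 genes of DNA methylation and H3K9 silencing, 0 passed 2-fold between Pcgf6KO and wildtype. Their median was -0.32, with -0.80 for the 5-methylcytosine dioxygenase Tet2, -0.46 for the histone methyltransferase Ehmt2 and -0.44 for the DNA methyltransferase Dnmt3a. Tet2 was 1.18 higher on the array labelled Pcgf6KO+ Pcgf6_flag than in Pcgf6KO, the only one of the 14 past 2-fold there.

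Markers of tissues that express Rhox genes were read as well. Of 11 measured trophoblast markers, none of them a Rhox gene, 3 were higher by 2-fold or more in Pcgf6KO than in wildtype: Hand1 with 1.48, Plac1 with 1.41 and Krt8 with 1.13. Their median was 0.54. The summed unscaled signal of the 12 markers was 101668 on the array labelled Pcgf6KO+ Pcgf6_flag, 154261 in Pcgf6KO and 89680 in wildtype. The trophoblast regulator Elf5 was well above background in Pcgf6KO alone. On the array labelled Pcgf6KO+ Pcgf6_flag, 6 of 10 trophoblast markers were lower than in Pcgf6KO by 2-fold or more, among them Cdx2 with -2.82. Against wildtype, after scaling, 0 of 10 were higher on that array and 2 were lower by 2-fold or more, with a median of -0.18. The part of trophoblast-like cells in the Rhox values was not tested, and in such bulk RNA fewer cells of a type and less RNA per cell cannot be told apart.

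Of 7 genes of the Sertoli cell list measured on both arrays, 0 were 2-fold away from wildtype in Pcgf6KO, with a median of -0.21. Cldn11 was well above background in Pcgf6KO and not in wildtype, with a bound of at least 2-fold higher. Of all genes measured on 1 of these 2 arrays, 20.3% had such a bound. The Sertoli genes Amh and Fshr were well above background on no array. Of 7 germ cell markers 1, Mael with 2.19, was higher in Pcgf6KO by 2-fold or more, and of 8 primitive endoderm markers 1, Dab2 with 1.27. None of the 8 pluripotency markers was 2-fold away from wildtype, with a median of -0.09.

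Feeder fibroblast markers were lower in Pcgf6KO. Of the 9 measured on both, 6 were lower by 2-fold or more in Pcgf6KO than in wildtype and 0 were higher, with a median of -1.12, among them Lox with -4.04, Fbln2 with -3.74 and Col3a1 with -2.47. On the array labelled Pcgf6KO+ Pcgf6_flag, 5 of 8 were lower than in Pcgf6KO by 2-fold or more, with a median of -2.57, and 7 of 8 were lower than in wildtype, with a median of -3.65. Feeder markers were thus lowest on the array labelled Pcgf6KO+ Pcgf6_flag and highest in wildtype. Most measured Rhox members were highest in Pcgf6KO. Their median difference was 0.13 for the array labelled Pcgf6KO+ Pcgf6_flag minus wildtype. The summed unscaled signal of the 12 markers was 62273 on the array labelled Pcgf6KO+ Pcgf6_flag, 84680 in Pcgf6KO and 181377 in wildtype, with 8, 9 and 11 of 12 markers measured, and Lum well above background on none. The part of feeder RNA in the Rhox values was not tested.

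**Figure D4:**
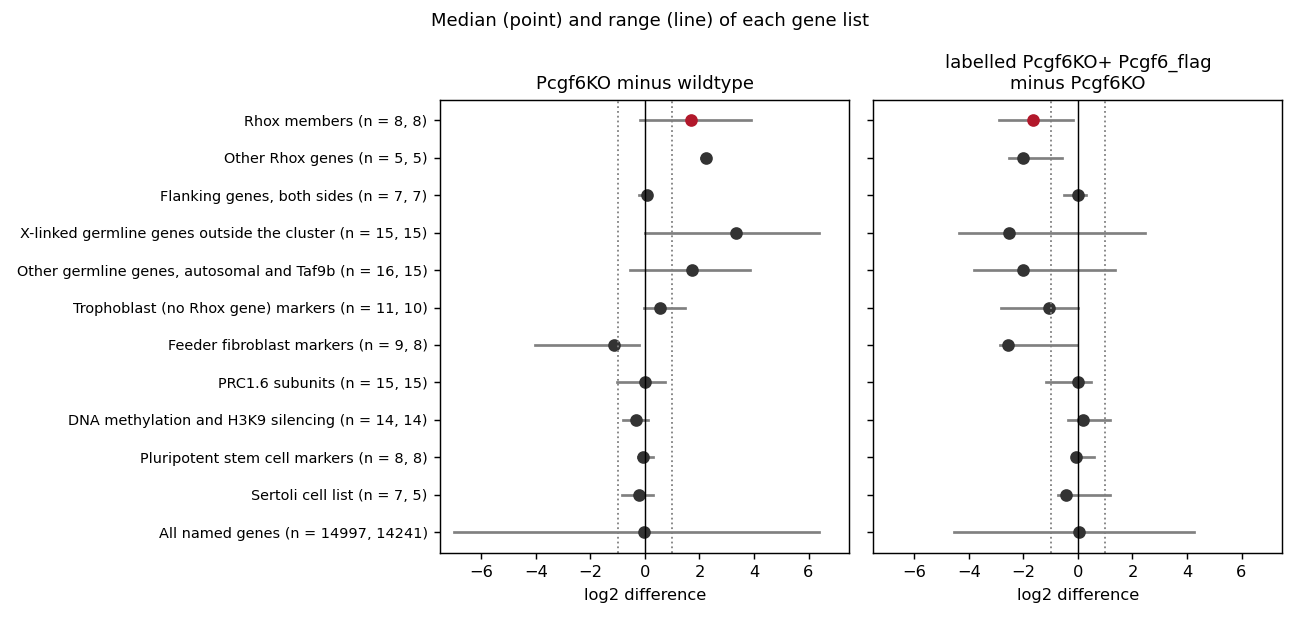
Median (point) and range (line) of the log2 difference in each gene list, for Pcgf6KO minus wildtype on the left and the array labelled Pcgf6KO+ Pcgf6_flag minus Pcgf6KO on the right; n gives the genes measured on both arrays in the left and the right panel, and the second germline list is the one with Taf9b. The Rhox members sit at 1.68 and -1.64 and the flanking genes at 0.06 and 0.00. The X-linked germline list sits at 3.35 and -2.53, and the second germline list at 1.73 and -2.03. Trophoblast markers, at 0.54 and -1.08, and feeder markers, at -1.12 and -2.57, are also below 0 on the right.

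The genes whose pattern over the 3 arrays was nearest to each of the 3 brightest members were found among 13590 genes measured on all arrays. Rhox genes and predicted genes were left out of this search. Nearness was the root mean square distance of the levels after each gene was centred on its own mean. For Rhox5 they were Chmp2b, Ehd3 and H2-Q2, at distances of 0.0035 to 0.0048. For Rhox8 they were Mertk, Resf1 and Zfp945, at 0.0011 to 0.0019. For Rhox9 they were Gbp2 at 0.018, Gbp3 at 0.031 and Wnt4 at 0.032. The distances rest on 3 arrays and are given as a description.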

How the data were processed

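Per the file headers, the deposited scanner output holds linear intensity per spot, read from 1-colour Cy3 arrays by Agilent Feature Extraction 11.5.1.1 (version 10.7 per the submitters' processing notes). The deposited processed intensity is already background-subtracted. The series' value table held the same unscaled processed signal for 55249 of 55249 single-spot probes on each array (tolerance 1e-06), with column medians of 313, 273 and 243 for the array labelled Pcgf6KO+ Pcgf6_flag, Pcgf6KO and wildtype. It is linear and uncentred, and holds no ratio. Groups come from the genotype labels; the source field also names muscle, which was not used.

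Each array had 62976 spots, of which 59305 were not controls; 192, 158 and 141 outlier spots on the same arrays were left out, and 0 were saturated. Spots of a probe were averaged, and log2 of the signal minus the array's 75th percentile was taken. RefSeq accessions (GRCm38.p6, names and gene order only) named 26762 of 55681 probes. Each gene's value is that of its brightest probe among those well above background on at least 1 array. With 1 array per group there is no test, and precision is limited by the number of arrays; 2-fold was the threshold, and bounds were given where 1 array was at background.

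The members, lists and settings were chosen with earlier results of these data known. The text names every Rhox gene with a probe, Pcgf6, the 5 nearest genes on each side, up to 3 genes per list with the largest difference, and the 3 genes nearest in pattern to each of the 3 brightest members; a few genes named for other reasons, such as genes at background or past 2-fold alone in their list, were chosen after their values were seen. Alternatives were normexp in limma 3.58.1 (offset 50, on median spot signals), 3 other scalings, the value table with and without scaling, dim probes kept, outlier spots kept, the mean over a gene's probes, and 1.5-fold and 3-fold thresholds. Leaving out spots with an outlying local background was added after seeing the data. Values of 1 list gene are not reported here. Computations used Python 3.11.15, pandas 2.3.3, numpy 2.4.6, Biopython 1.88 and R 4.3.3.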

Additional observations from a re-analysis of the deposited data

How the results depend on the processing

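Each alternative was applied to the 3 comparisons. For Pcgf6KO against wildtype, 5 to 6 members were at least 2-fold higher under every alternative and 0 were lower: 5 with normexp background correction, which left out Rhox1, and 5 of 5 measured members when spots with an outlying local background were left out. For the array labelled Pcgf6KO+ Pcgf6_flag against Pcgf6KO, 4 to 6 members were lower: 6 at 1.5-fold, where Rhox5 joined, 4 at 3-fold, where Rhox9 dropped out at -1.48, and 4 of 5 without outlying local background. For that array against wildtype, the 2 members at least 2-fold higher became 0 with normexp, 1 with scaling to the array median, 0 at 3-fold, 3 at 1.5-fold and 1 of 5 without outlying local background, so Rhox1 and Rhox13 rest on the processing there. No member changed direction past a threshold. Without scaling, the members' median moved to 1.81 for Pcgf6KO against wildtype and 0.37 for the array labelled Pcgf6KO+ Pcgf6_flag against wildtype, while the median of all genes stood at 0.11 and 0.22. Scaling also moved the share of higher among all genes past 2-fold. It was 67.3% for Pcgf6KO against wildtype and 77.7% without scaling. For the array labelled Pcgf6KO+ Pcgf6_flag against wildtype it was 50.5%, 70.5% without scaling and 39.2% with median scaling, which moved the median of all genes to -0.14. Counts of all genes moved by more than 1.5 times with the threshold and the filter. For Pcgf6KO against wildtype, 870 genes were higher and 422 lower at 2-fold, 1752 and 1129 at 1.5-fold, 319 and 145 at 3-fold, and 1588 and 878 with no filter on dim probes. For the array labelled Pcgf6KO+ Pcgf6_flag against Pcgf6KO, 769 and 1192 became 1804 and 2137, 233 and 569, and 1961 and 2196 under the same 3 settings, and 682 and 776 without outlying local background. Against wildtype, its 696 and 682 became 1551 and 1553, 220 and 260, and 1764 and 1509, then 598 and 433 without outlying local background, 452 and 535 with normexp and 1075 and 450 without scaling. With no filter the members' median for the array labelled Pcgf6KO+ Pcgf6_flag against Pcgf6KO was -1.48, since Rhox11 entered at its background signal. A block for slide was not fitted because the second slide held 1 array. No paired analysis was possible because each group has 1 array and no test was made. Signal over background limits Rhox1, Rhox11, Rhox12 and the Rhox3 and Rhox7a genes.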

Other observations

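Btg1c, which lies inside the Rhox cluster but is no homeobox gene, did not share the pattern of its neighbours. It was chosen after its values were seen. Its signal was 2261 on the array labelled Pcgf6KO+ Pcgf6_flag, 1131 in Pcgf6KO and 1035 in wildtype, and its level in Pcgf6KO differed from wildtype by 0.00 log2 units. The array labelled Pcgf6KO+ Pcgf6_flag was 0.89 above Pcgf6KO and 0.89 above wildtype.

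The genes nearest in pattern to Rhox13, the member with the largest difference, were also looked up after its values were seen. This search again left out all Rhox genes, so it does not show how near the other Rhox genes were. Outside the Rhox family the nearest were the metal transporter gene Slc39a8 at a distance of 0.095, the sialyltransferase gene St8sia6 at 0.24 and the meiotic recombination gene Tex11 at 0.26. Slc39a8 had log2 differences of 3.73 for Pcgf6KO minus wildtype and -2.90 for the array labelled Pcgf6KO+ Pcgf6_flag minus Pcgf6KO, beside 3.90 and -2.84 for Rhox13. Tex11, like Rhox13, remained above wildtype on the array labelled Pcgf6KO+ Pcgf6_flag, with 1.08 for Tex11 and 1.05 for Rhox13.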
